A study of Mus musculus with 3 samples.

Results

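The receptors that carry myeloid growth factor signals, and one of their ligands, were described across 3 sorted myeloid populations of the mouse colon. The 10 genes were chosen by symbol, out of 24346 symbols listed in each library. They were Csf1r, Csf2ra, Csf2rb, Csf2rb2, Csf3r, Il3ra, Il4ra, Il6ra and Kit, which encode receptor chains, and Csf1, which encodes a ligand and not a receptor. The populations were Gr-1+ CD11b+ cells, which the labels call neutrophils and monocytes, CD64- dendritic cells (DC) and CD64+ macrophages. All 3 came from healthy mice of the BALB/c strain, no treatment was named, and neither the age of the mice nor any pooling of animals is stated in the sources used here. Each population was 1 library of bulk RNA, so differences are described by their size, without tests. Values are FPKM, fragments per kilobase of transcript and of sequencing depth, so levels of different genes are comparable per length. In bulk RNA, fewer cells of a type and less RNA per cell cannot be told apart.

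Myeloid cells read their surroundings through a few cytokine receptors. The M-CSF receptor (Csf1r) and KIT are receptor tyrosine kinases, and M-CSF keeps tissue macrophages alive. The receptors for GM-CSF, IL-3 and IL-5 pair a chain specific to the ligand with a shared beta chain, and signal through JAK2 and STAT5. The G-CSF receptor (Csf3r), which drives neutrophil production, signals largely through STAT3, as does the IL-6 receptor with its partner gp130, and the IL-4 receptor chain acts through STAT6.

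The libraries differed in depth and background. The smallest steps between FPKM values put the depth of the DC library at 3.60 times, and that of the macrophage library at 2.72 times, that of Gr-1+ CD11b+ cells. Among 1445 olfactory and vomeronasal receptor genes, which are mostly used by sensory neurons, the 95th percentile was 9.67 FPKM in Gr-1+ CD11b+ cells, 0.61 FPKM in DC and 3.23 FPKM in macrophages. Values below this silent-gene level are not read as expression. Summed levels of 14 neutrophil markers were 177903, 1784 and 4707 FPKM in the Gr-1+ CD11b+ cells, DC and macrophages. The sums of 12 macrophage markers were 1239, 1010 and 9652 FPKM in the same order, and those of 12 dendritic cell markers 69.6, 1388 and 312 FPKM. Most of the dendritic cell marker sum in DC came from Ccr7, at 1004 FPKM. By the size rule given below, 3 of the 12, Ccr7, Flt3 and Irf4, were higher in DC than in macrophages as deposited and 0 lower. Their sums therefore do not compare the amounts of dendritic cell RNA. Markers of B and plasma cells, 8 in number and led by Jchain, summed to 431, 22684 and 1164 FPKM, so that in the DC library they exceeded the dendritic cell markers. The sums of 8 monocyte markers were 1528, 2004 and 3831 FPKM, lowest in the Gr-1+ CD11b+ cells that the labels call neutrophils and monocytes. In these cells 2, Ccr2 and F13a1, were lower than in macrophages and 0 higher, while 1, Chil3, was higher than in DC and 0 lower. Ly6c2, the most abundant of the 8 in DC, measured 320, 878 and 782 FPKM. The monocyte sums therefore do not rank the populations by monocyte RNA. Sums of the remaining lists were 27.4, 118 and 20.6 FPKM for 6 eosinophil markers, and 29.2, 91.7 and 64.1 FPKM for 6 T cell markers. They were 587, 282 and 168 FPKM for 7 epithelial markers and 315, 341 and 187 FPKM for 10 stromal and endothelial markers. Most of the eosinophil sum of DC came from Prg2, at 108 FPKM. Siglecf, at 13.7, 2.16 and 6.03 FPKM, had its lowest value in DC, as did Ear1, which stayed below the silent-gene level throughout. Il5ra was highest in DC, at 4.39 FPKM, Ccr3 was highest in macrophages, and Epx was listed at 0 throughout. The eosinophil sums therefore do not compare the amounts of eosinophil RNA.

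All 10 genes reached 1 FPKM in some library and none was listed at 0. The silent-gene level was exceeded by 8 of them in Gr-1+ CD11b+ cells, by all 10 in DC and by 9 in macrophages. Together they summed to 1524 FPKM in Gr-1+ CD11b+ cells, 333 FPKM in DC and 1316 FPKM in macrophages. Csf3r made up 55.02% of the sum in Gr-1+ CD11b+ cells, Csf1r made up 54.2% in macrophages, and Il4ra was the highest of the 10 in DC, with 28.8%. As deposited, the DC library gave the lowest value for 8 of the 10 genes, all but Kit and Il3ra. With libraries scaled to equal FPKM sums, Il4ra and Csf1 were no longer lowest in DC. They then exceeded macrophages by 0.21 and 0.12 in log2(FPKM + 1).

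**Figure D1:**
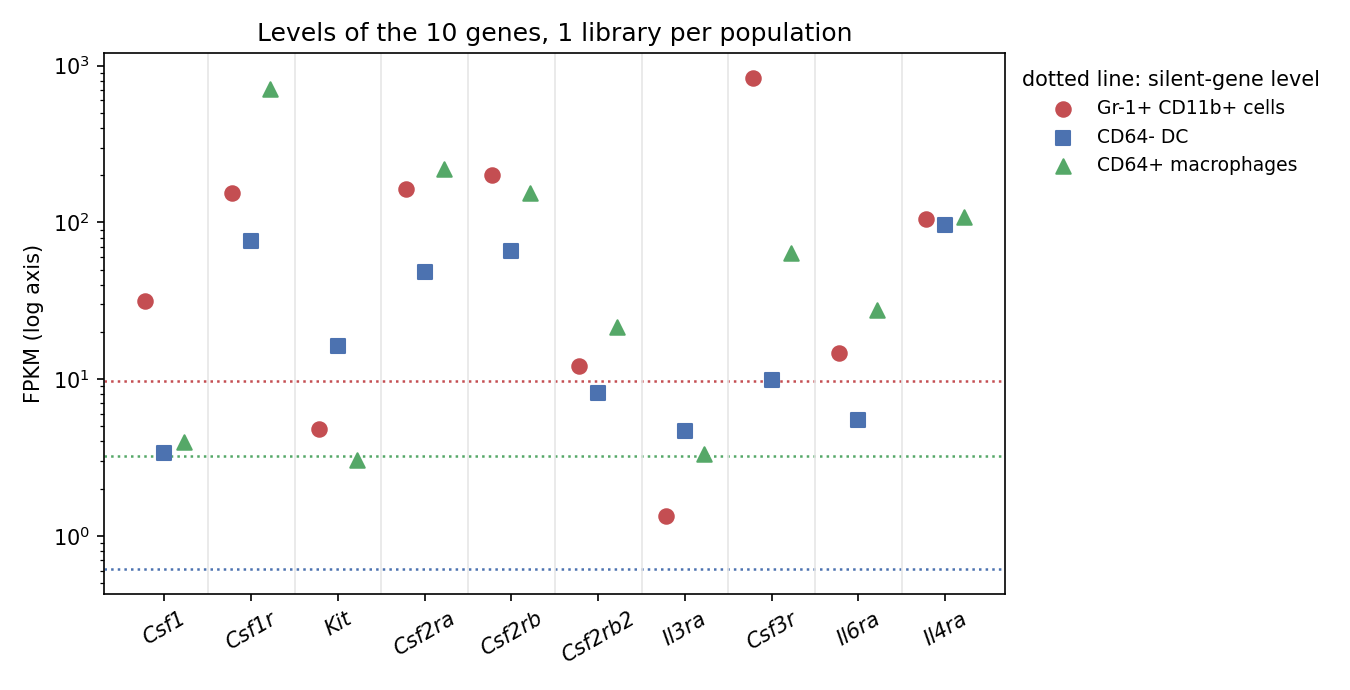
FPKM on a log axis for the 10 genes in the 3 libraries, 1 point per library. Dotted lines mark the silent-gene level of each library, 9.67 FPKM in Gr-1+ CD11b+ cells, 0.61 FPKM in DC and 3.23 FPKM in macrophages. Csf3r spans the widest range, from 9.85 FPKM in DC to 838 FPKM in Gr-1+ CD11b+ cells, while the 3 points of Il4ra lie together near 100 FPKM.

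A gene was called higher or lower by a size rule, a difference of 2 or more in log2(FPKM + 1) where the higher library reached 10 FPKM. The added 1 understates differences of low genes, and Il3ra, below 10 FPKM in every library, could not be called. Between Gr-1+ CD11b+ cells and DC, 2 of the 10 genes were higher, Csf3r and Csf1, and 0 were lower, where 3.65% and 6.28% of all 17329 genes at 1 FPKM or more were, 9.93% in all. Between Gr-1+ CD11b+ cells and macrophages the same 2 genes were higher and Csf1r was lower, against 1.41% and 3.41% of all genes, 4.82% in all. Between DC and macrophages Kit was higher and 4 genes were lower, Csf1r, Csf3r, Csf2ra and Il6ra, against 1.53% and 2.31% of all genes, 3.85% in all. The median differences of the 10 genes in the same order of comparisons were 1.14, -0.24 and -1.26, and those of all genes 0.01, 0.10 and -0.05.

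**Figure D2:**
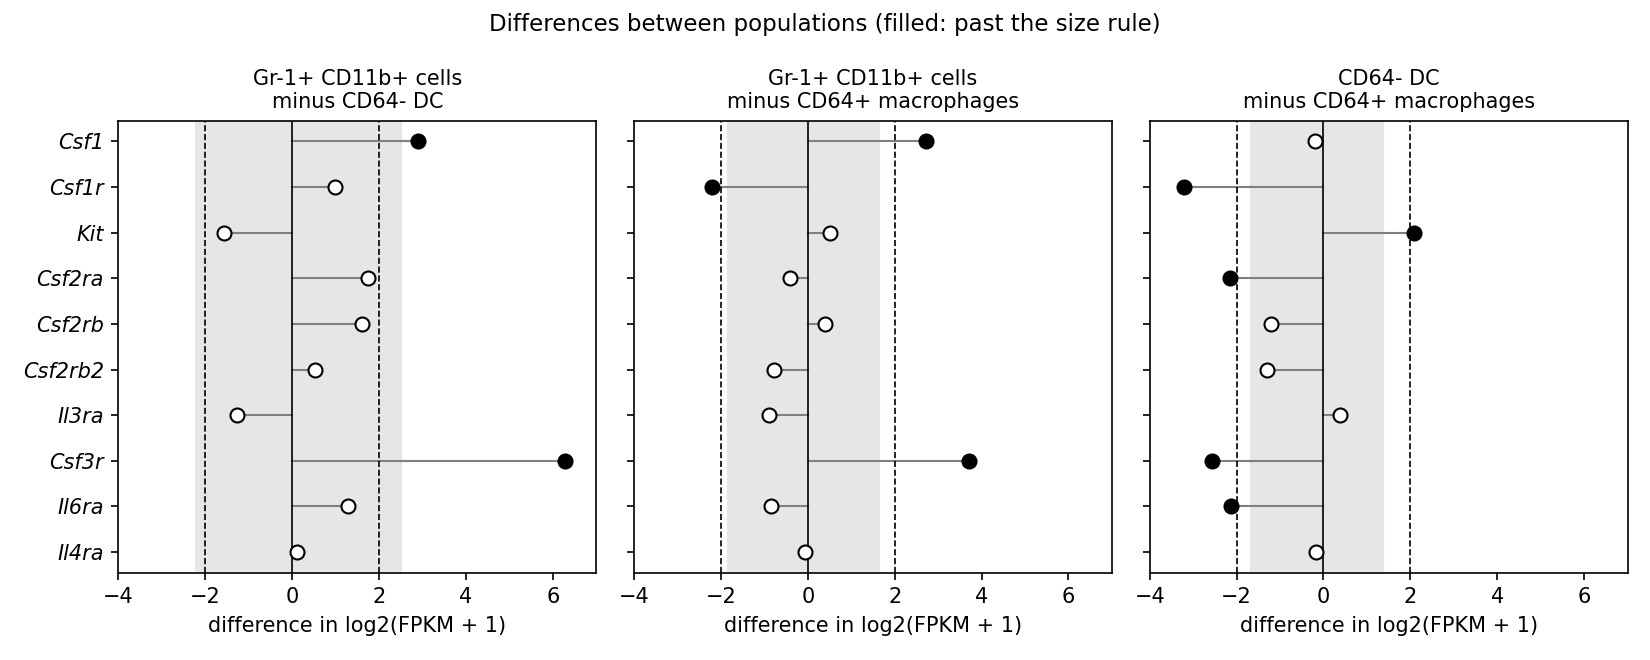
Differences in log2(FPKM + 1) of the 10 genes in the 3 comparisons, with filled points past the size rule, dashed lines at -2 and 2, and grey bands from the 5th to the 95th percentile of all 17329 genes. Csf3r lies outside the band in all 3 panels, at 6.27, 3.70 and -2.57, and Il4ra lies near 0 in all 3.

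Which direction held more calls over all genes turned with the scaling of the libraries. Gr-1+ CD11b+ cells had 633 genes higher and 1088 lower than DC as deposited, 492 and 1814 with equal FPKM sums, 1126 and 353 with median-ratio scaling and 1141 and 370 with equal 75th percentiles. Against macrophages they had 244 higher and 591 lower as deposited, 618 and 251 with median-ratio scaling and 647 and 244 with equal 75th percentiles. DC had 266 genes higher and 401 lower than macrophages as deposited, and 416 and 264 with equal sums. Equal sums shifted the median of all genes by -0.28 between Gr-1+ CD11b+ cells and DC and by 0.25 between DC and macrophages. Median-ratio scaling shifted it by 0.62, 0.43 and -0.12 in the 3 comparisons, and equal 75th percentiles by 0.61, 0.45 and -0.10. Calls of the 10 genes that these scalings change are given beside them.

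Csf1r, the receptor of M-CSF and IL-34, was the leading macrophage member. It stood at 153 FPKM in Gr-1+ CD11b+ cells, 76.5 FPKM in DC and 714 FPKM in macrophages. Macrophages stood far above both others, and Gr-1+ CD11b+ cells exceeded DC by a log2 difference of 0.99, short of the rule. The difference from macrophages was -2.21 for Gr-1+ CD11b+ cells and -3.21 for DC, where 79 of 17329 genes had a more negative one. The call of Gr-1+ CD11b+ cells against macrophages was lost with median-ratio scaling, at -1.63, and with equal 75th percentiles, at -1.61. Csf1r lies on chromosome 18 at 61100598 to 61132149, plus strand (GRCm38), and its end overlaps Hmgxb3 on the other strand.

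Macrophage markers moved with Csf1r. Of 12 such markers 0 were higher and 8 were lower in the Gr-1+ CD11b+ cells than in macrophages, and 0 were higher and 11 lower in DC than in macrophages. None of the 12 was listed at 0 in any library. The Csf1r level in DC was 10.7% of that in macrophages, beside a median of 10.5% for the 12 markers, whose range was 8.17% to 27.3%. In Gr-1+ CD11b+ cells Csf1r was at 21.5% of the macrophage level, beside a median of 10.5% and a range of 6.86% to 151%, the highest being Itgam, the CD11b gene of the sort. Fcgr1, the CD64 gene, is also among the 12 and was used in the sort. The complement gene C1qc stood at 7.64% there, and the phagocyte gene Cd68 at 30.8%. The part of macrophage RNA in the other libraries' Csf1r values was not tested.

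**Figure D3:**
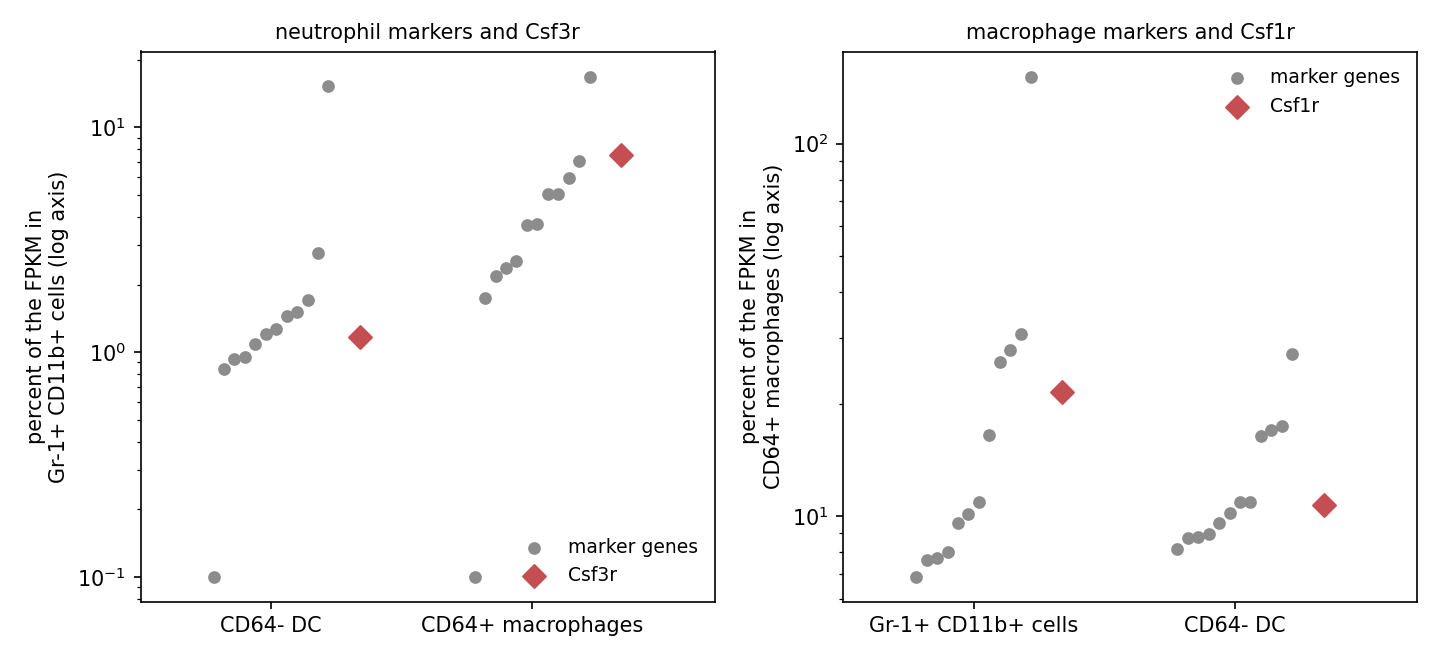
Levels of marker genes (grey) and of Csf3r or Csf1r (red) in the 2 other libraries, as a percent of the FPKM in the population the markers belong to, on a log axis, with Camp, listed at 0 in both, drawn at 0.1. Csf3r in DC, at 1.17%, lies among the neutrophil markers, and in macrophages, at 7.58%, above all of them but Clec4d. Csf1r lies at 21.5% in Gr-1+ CD11b+ cells and 10.7% in DC.

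Csf1, the gene of the ligand M-CSF, was highest in Gr-1+ CD11b+ cells. It stood at 31.7 FPKM in Gr-1+ CD11b+ cells, 3.37 FPKM in DC and 3.98 FPKM in macrophages. Gr-1+ CD11b+ cells were higher than DC by 2.90 and than macrophages by 2.71, and the values of DC and macrophages were close to each other, with a difference of -0.19. On its longest coding transcript these levels correspond to about 298, 114 and 102 fragments, and the 95% Poisson intervals, which cover counting error only, were 28.2 to 35.5, 2.78 to 4.04 and 3.25 to 4.83 FPKM. The macrophage value was little above the silent-gene level of 3.23 FPKM. The other ligand of this receptor, Il34, measured 2.75, 2.52 and 0.53 FPKM in Gr-1+ CD11b+ cells, DC and macrophages, above the silent-gene level in DC only. Both calls of Csf1 were kept under all 3 scalings. Relative to Gr-1+ CD11b+ cells, Csf1 was at 10.6% in DC and 12.6% in macrophages, beside medians of 1.24% and 3.70% for 12 neutrophil markers, whose part in it was not tested. It lies on chromosome 3 at 107741048 to 107760469, minus strand.

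Csf3r, the G-CSF receptor, showed the largest differences of Gr-1+ CD11b+ cells from both other populations among the 10 genes. It stood at 838 FPKM in Gr-1+ CD11b+ cells, 9.85 FPKM in DC and 63.6 FPKM in macrophages. Gr-1+ CD11b+ cells exceeded DC by 6.27 and macrophages by 3.70 on the log2(FPKM + 1) scale, and only 20 and 60 of 17329 genes had larger differences in these comparisons. In Gr-1+ CD11b+ cells it was the 118th highest gene of the library. DC and macrophages also differed, by -2.57, and this call was kept under the 3 scalings. Csf3r lies on chromosome 4 at 126024550 to 126044440, plus strand, with no overlapping gene in the annotation.

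Neutrophil markers moved with Csf3r. Of 14 neutrophil markers 12 were higher in the Gr-1+ CD11b+ cells than in DC and the same number than in macrophages, and the remaining pair, Mpo and Elane, granule enzymes made in the bone marrow, stayed below 1 FPKM in every library. In macrophages Csf3r was at 7.58% of its level in Gr-1+ CD11b+ cells, beside a median of 3.70% for the 12 markers and a range of 0% to 16.9%. In DC it was at 1.17%, beside a median of 1.24% and a range of 0% to 15.3%. S100a8 and S100a9, the calprotectin subunits, were at 2.19% and 2.36% in macrophages, and the lectin gene Clec4d was the highest at 16.9%. Camp and Elane were listed at 0 in macrophages, and Camp, Mpo and Elane in DC. The part of neutrophil RNA in the Csf3r values of DC and macrophages was not tested. The ligand gene Csf3 stood at 48.7 FPKM in Gr-1+ CD11b+ cells, 6.52 FPKM in DC and 23.1 FPKM in macrophages, and passed the size rule between Gr-1+ CD11b+ cells and DC, at 2.73.

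The start regions of Csf3r and Csf1 are shown because these were the only genes of the 10 that were higher in the Gr-1+ CD11b+ cells than in both other populations. Sequences are from RefSeq (GRCm38.p6), 250 bases before to 50 after an annotated start, at chr4:126024409-126024708 on the plus strand and chr3:107760420-107760719 on the minus strand, written along the gene's strand. Capitals mark matches on either strand to GAGGAA, the core read by PU.1, and to a form of the NF-kB site, GGG and TCC with any 4 bases between them.
Csf3r: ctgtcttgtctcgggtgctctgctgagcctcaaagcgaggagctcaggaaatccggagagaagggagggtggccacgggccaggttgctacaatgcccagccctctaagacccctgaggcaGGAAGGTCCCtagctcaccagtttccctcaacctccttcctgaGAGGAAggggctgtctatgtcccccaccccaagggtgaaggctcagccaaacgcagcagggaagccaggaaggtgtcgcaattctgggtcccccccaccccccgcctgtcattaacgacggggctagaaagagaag
Csf1: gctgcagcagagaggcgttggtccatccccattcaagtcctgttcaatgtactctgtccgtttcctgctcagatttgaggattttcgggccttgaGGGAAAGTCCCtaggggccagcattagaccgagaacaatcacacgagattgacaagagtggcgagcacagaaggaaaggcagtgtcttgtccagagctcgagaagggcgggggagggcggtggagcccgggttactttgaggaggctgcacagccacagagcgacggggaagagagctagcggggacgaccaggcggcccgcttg
Csf3r held 1 match to GAGGAA and 1 to the NF-kB form. Csf1 held 0 matches to GAGGAA and 2 to the NF-kB form, which overlap on opposite strands. Neither held the C/EBP letters TTNNGNAA. Of 27025 promoters of this length, 28.3% held GAGGAA, 18.99% held the NF-kB form and 40.7% held TTNNGNAA. Promoters were found for 8 of the 10 genes, all but Csf1r and Csf2rb, and 5, 4 and 4 of the 8 held these motifs in the same order. A match describes letters and not a used site.

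The GM-CSF receptor genes were lowest in DC. Csf2ra, the chain specific to GM-CSF, stood at 163 FPKM in Gr-1+ CD11b+ cells, 47.96 FPKM in DC and 218 FPKM in macrophages. Csf2rb, the beta chain shared with the IL-3 and IL-5 receptors, measured 200.3, 65.2 and 153 FPKM in the same order. Gr-1+ CD11b+ cells and macrophages were close to each other for both chains, with differences of -0.42 for Csf2ra and 0.38 for Csf2rb, and their order changed between the chains. With median-ratio scaling the sign for Csf2ra turned, to 0.16. The chain ratio, Csf2ra over Csf2rb in FPKM, was 0.81 for Gr-1+ CD11b+ cells, 0.74 for DC and 1.42 for macrophages.

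Of these differences, that of Csf2ra between DC and macrophages passed the size rule, at -2.16, but not with equal FPKM sums, at -1.77. The Csf2ra level in DC was 22.0% of that in macrophages, beside the median of 10.5% for 12 macrophage markers, whose part in it was not tested. Gr-1+ CD11b+ cells exceeded DC by 1.74 for Csf2ra and by 1.60 for Csf2rb, which did not pass as deposited. With median-ratio scaling both passed, at 2.51 and 2.37, and with equal 75th percentiles at 2.50 and 2.37. The ligand gene Csf2 measured 4.81, 7.80 and 7.12 FPKM in Gr-1+ CD11b+ cells, DC and macrophages, below the silent-gene level in Gr-1+ CD11b+ cells. Csf2ra lies on chromosome 19 at 61223957 to 61228429, minus strand.

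Csf2rb2 encodes a second beta chain, found in mice, that serves IL-3 alone. It stood at 12.2 FPKM in Gr-1+ CD11b+ cells, 8.11 FPKM in DC and 21.5 FPKM in macrophages, and no difference passed the size rule. Relative to Csf2rb it was at a ratio of 0.061 for Gr-1+ CD11b+ cells, 0.12 for DC and 0.14 for macrophages. The genes lie 20030 bases apart on chromosome 15, Csf2rb at 78325752 to 78353847 on the plus strand and Csf2rb2 at 78282507 to 78305721 on the minus strand (GRCm38). Their coding sequences were identical at 95.2% of 2628 aligned bases, with a longest identical run of 242 bases. Of all 50-base stretches of the longest coding transcript, 18.4% for Csf2rb and 19.02% for Csf2rb2 also occurred in the other gene's transcript. Fragments from such stretches cannot be placed by sequence alone, so the split between this pair is uncertain. With both summed, no call of the 10 genes changed.

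A pair of neighbouring coding windows shows both cases, and differing bases are in capitals. The first, chr15:78338834-78338893 in Csf2rb and chr15:78294438-78294497 in Csf2rb2, held 0 differences in 60 bases.
Csf2rb, alike: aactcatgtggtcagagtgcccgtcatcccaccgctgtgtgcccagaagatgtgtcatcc
Csf2rb2, alike: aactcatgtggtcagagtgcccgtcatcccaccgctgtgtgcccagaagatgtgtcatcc
The second, chr15:78338893-78338952 in Csf2rb and chr15:78294379-78294438 in Csf2rb2, held 13 differences in 60 bases, the most in any such window within an exon.
Csf2rb, unlike: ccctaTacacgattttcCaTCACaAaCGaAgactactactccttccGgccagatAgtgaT
Csf2rb2, unlike: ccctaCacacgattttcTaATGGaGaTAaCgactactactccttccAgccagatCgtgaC
A fragment from the first window fits both genes, and one from the second fits only its own. Sequences are given along the strand of each gene.

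Il3ra, the chain specific to IL-3, was low throughout. It stood at 1.34 FPKM in Gr-1+ CD11b+ cells, 4.67 FPKM in DC and 3.33 FPKM in macrophages. The first value lay below the silent-gene level and the last just above it. The value of Gr-1+ CD11b+ cells corresponds to about 7 fragments, with a 95% Poisson interval of 0.54 to 2.76 FPKM, against 3.74 to 5.75 in DC and 2.45 to 4.43 in macrophages. The intervals of DC and macrophages overlapped. Relative to Csf2rb, Il3ra was at 0.072 in DC and 0.022 in macrophages. Markers of plasmacytoid DC summed to 103, 334 and 229 FPKM in Gr-1+ CD11b+ cells, DC and macrophages. By the size rule 2 of 6, Bst2 and Tcf4, were lower in the Gr-1+ CD11b+ cells than in DC as deposited. With median-ratio scaling or equal 75th percentiles 0 were lower. With equal FPKM sums Siglech and Ccr9 were higher in DC than in macrophages, at 2.03 and 2.01, where none passed as deposited. Basophil markers, 4 in number, summed to 17.2, 1.48 and 7.95 FPKM, none passed the size rule, and Prss34 was listed at 0 in DC. Their part in the Il3ra values was not tested. The ligand gene Il3 was listed at 0 in all 3 libraries, and Il5 and Il5ra were at 4.39 FPKM or less in each. Il3ra lies on chromosome 14 at 14346275 to 14356011, plus strand, with the antisense gene Gm48860 overlapping it.

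**Figure D4:**
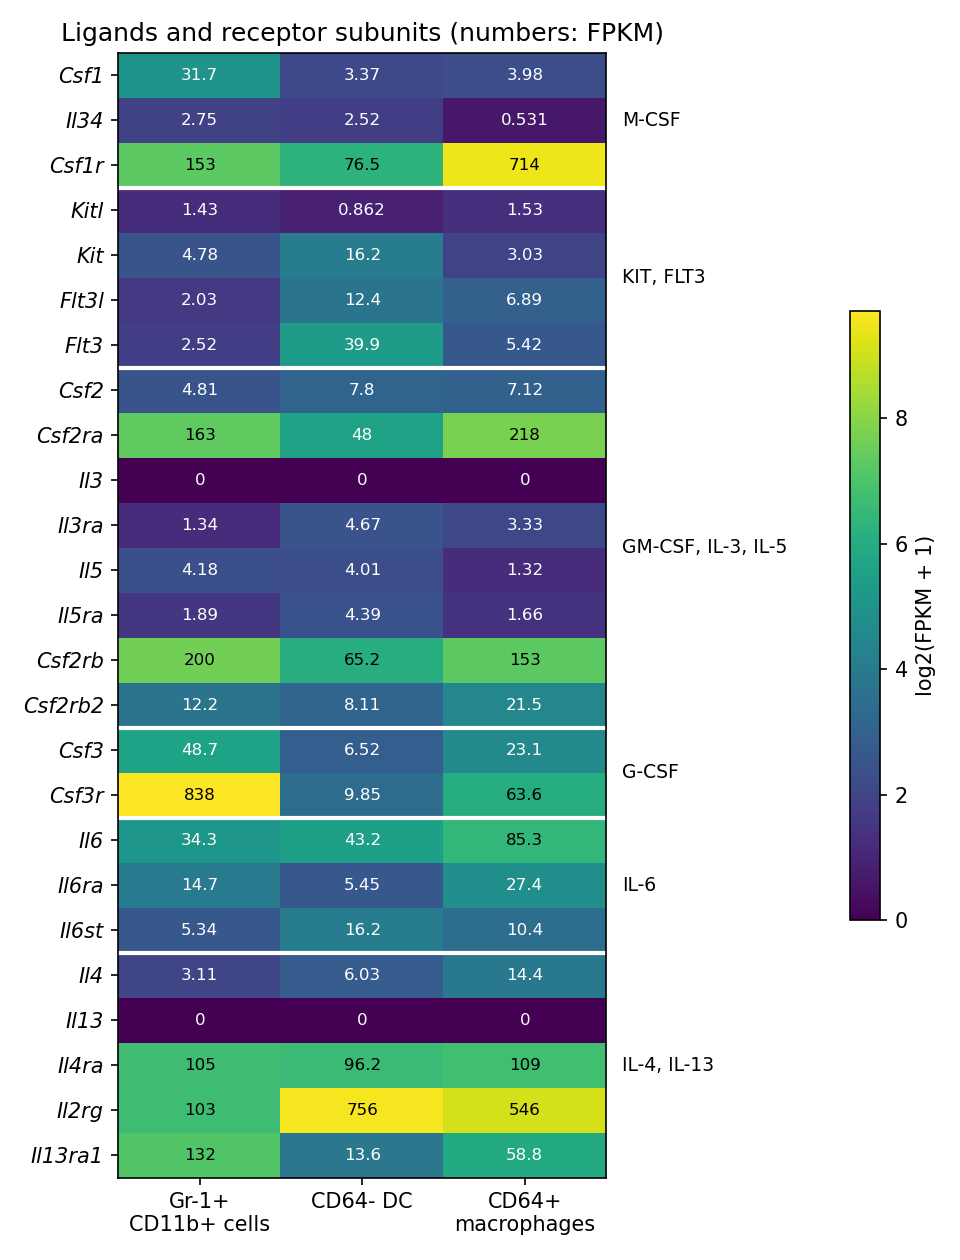
FPKM of ligand and receptor genes in the 3 libraries, with color for log2(FPKM + 1), grouped by receptor system from M-CSF to IL-4. Csf1r, Csf3r and the shared chain Il2rg have the highest values, and Il3 and Il13 are listed at 0 in every library.

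Kit, the receptor of stem cell factor, which mast cells and some innate lymphoid cells keep at high levels, was highest in DC. It stood at 4.78 FPKM in Gr-1+ CD11b+ cells, 16.2 FPKM in DC and 3.03 FPKM in macrophages. The values of Gr-1+ CD11b+ cells and macrophages lay below the silent-gene levels of their libraries, so DC alone had a value read as expression. The difference between DC and macrophages was 2.09, past the size rule, but it was 1.88 with median-ratio scaling and 1.91 with equal 75th percentiles. That between Gr-1+ CD11b+ cells and DC was -1.57. The Poisson intervals were 3.61 to 6.19, 15.0 to 17.4 and 2.46 to 3.69 FPKM in Gr-1+ CD11b+ cells, DC and macrophages. The ligand gene Kitl was at 1.43, 0.86 and 1.53 FPKM. Kit lies on chromosome 5 at 75574916 to 75656722, plus strand.

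Markers of other cell types were measured beside Kit. Mast cell markers, 10 in number, summed to 18.4 FPKM in Gr-1+ CD11b+ cells, 18.9 FPKM in DC and 12.2 FPKM in macrophages, and none passed the size rule. Of these markers 6 exceeded the silent-gene level in DC and 0 in the other libraries, and Tpsab1, a tryptase gene, was listed at 0 in macrophages. That level was 0.61 FPKM in DC against 9.67 and 3.23 FPKM in Gr-1+ CD11b+ cells and macrophages. These counts therefore do not compare the amounts of mast cell RNA. Innate lymphoid markers, 8 in number, summed to 20.6, 138 and 23.1 FPKM in the same order. Most of the DC sum came from Il22, a cytokine gene of these cells, at 102 FPKM, past the size rule against both others. Markers of interstitial cells of Cajal, the pacemaker cells of the gut wall, summed to 16.7, 8.69 and 12.4 FPKM. Of 8 B and plasma cell markers, 8 were lower in the Gr-1+ CD11b+ cells than in DC, and 8 differed by the size rule between DC and macrophages, with the DC value above. Their part in the Kit value of DC was not tested. Flt3, a related kinase receptor of dendritic cells, measured 2.52, 39.9 and 5.42 FPKM in Gr-1+ CD11b+ cells, DC and macrophages.

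Il6ra, the chain that binds IL-6, stood at 14.7 FPKM in Gr-1+ CD11b+ cells, 5.45 FPKM in DC and 27.4 FPKM in macrophages. The difference of -2.14 between DC and macrophages passed the size rule, but with equal FPKM sums it was -1.79. The level in DC was 19.9% of that in macrophages, beside the median of 10.5% for 12 macrophage markers, whose part in it was not tested. Il6ra lies on chromosome 3 at 89864059 to 89913196, minus strand, with the antisense gene Gm42809 overlapping it. Gr-1+ CD11b+ cells lay between the other populations, 1.29 above DC and 0.85 below macrophages. Il6st, the gene of the signalling partner gp130, was highest in DC, with no call, at 5.34, 16.2 and 10.4 FPKM in the Gr-1+ CD11b+ cells, DC and macrophages, and lay below the silent-gene level in Gr-1+ CD11b+ cells. The ratio of Il6ra to Il6st was 0.34 for DC and 2.64 for macrophages, and none is given for Gr-1+ CD11b+ cells. The ligand gene Il6 was at 34.3, 43.2 and 85.3 FPKM. Adam17, which encodes a protease that sheds this receptor and the M-CSF receptor, was at 10.2, 18.7 and 47.6 FPKM, and its difference of -2.12 between Gr-1+ CD11b+ cells and macrophages passed the size rule, but not with median-ratio scaling, at -1.57. Its regulator Rhbdf2 was at 35.7, 15.9 and 34.9 FPKM. Of 4 genes of shedding, Adam17 was the only 1 past the rule in any comparison.

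Il4ra, the chain shared by the IL-4 and IL-13 receptors, was nearly level. It stood at 104.6 FPKM in Gr-1+ CD11b+ cells, 96.2 FPKM in DC and 109 FPKM in macrophages, with differences of 0.12, -0.05 and -0.17 in the 3 comparisons. These differences are smaller than the shifts between scalings, so the order of the populations is not read from them. Il4ra lies on chromosome 7 at 125552120 to 125579474, plus strand, with the antisense gene Gm44876 overlapping it. Its partners differed. Il2rg, which completes the receptor for IL-4 alone, stood at 103 FPKM in Gr-1+ CD11b+ cells, 756 FPKM in DC and 546 FPKM in macrophages. Il13ra1, which completes the receptor for both IL-4 and IL-13, measured 132, 13.6 and 58.8 FPKM in the same order.

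By the size rule Il2rg was lower in the Gr-1+ CD11b+ cells than in DC and macrophages, at -2.86 and -2.39, and Il13ra1 was higher in the Gr-1+ CD11b+ cells than in DC, at 3.19, and lower in DC than in macrophages, at -2.03. With median-ratio scaling the difference of Il2rg from macrophages was -1.82, and with equal FPKM sums that of Il13ra1 between DC and macrophages was -1.66, both short of the rule. The ratio of Il13ra1 to Il2rg was 1.28 for Gr-1+ CD11b+ cells, 0.018 for DC and 0.11 for macrophages. Il2rg also belongs to receptors of lymphocytes, whose markers were in the DC library, and their part in its value was not tested. The ligand gene Il4 measured 3.11, 6.03 and 14.4 FPKM in Gr-1+ CD11b+ cells, DC and macrophages, and Il13 was listed at 0.

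The counts of this list and of those below stand beside the all-gene shares given above. In the first comparison 3.65% of all genes were higher and 6.28% lower, in the second 1.41% and 3.41%, and in the third 1.53% and 2.31%. In lists this short, a count of 0 or 1 is not read as a result about the list. The 17 ligand genes of these pathways, 13 of them at 1 FPKM or more, include Csf1, already counted as 1 of the 10 genes. In Gr-1+ CD11b+ cells 3 were higher than in DC, Csf1 among them, and 1 was lower. Relative to macrophages 1 was higher, Csf1 itself, and 0 were lower. In DC relative to macrophages 0 were higher and 1 was lower. The median differences of these ligand genes were 0.09, 0.36 and -0.44, beside 0.01, 0.10 and -0.05 over all genes. Of 16 partner and related receptors, 14 of them at 1 FPKM or more, 1 was higher and 3 lower in the first comparison, 0 and 2 in the second, and 2 and 1 in the third. Their medians were -0.86, -0.85 and 0.18. With equal FPKM sums Il7r was a further gene lower in the first comparison, at -2.02. Flt3 and Il27ra made up the higher calls of DC over macrophages.

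Of 13 kinases downstream of these receptors, 1 was higher in the Gr-1+ CD11b+ cells than in DC, and none was called between Gr-1+ CD11b+ cells and macrophages. Fgr, a Src family kinase, measured 275, 43.2 and 130 FPKM in Gr-1+ CD11b+ cells, DC and macrophages. Lyn was at 177, 124 and 191 FPKM. With median-ratio scaling Fes passed between Gr-1+ CD11b+ cells and DC, at 2.30, and with equal FPKM sums Tyk2 and Tec did, at -2.25 and -2.07. The medians of the kinases over the 3 comparisons were 0.13, -0.19 and 0.26. None of 7 STAT genes passed the size rule in any comparison as deposited, and with equal FPKM sums Stat5a did between Gr-1+ CD11b+ cells and DC, at -2.11. Stat3 was at 169, 147 and 119 FPKM and Stat6 at 115, 83.9 and 71.4 FPKM. The medians of the STAT genes were -0.00, 0.20 and 0.30. The activity of the STAT proteins was not measured.

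Among 20 adaptors and phosphatases, 1 was higher and 1 lower in the Gr-1+ CD11b+ cells than in DC, 0 and 2 than in macrophages, and 0 higher and 3 lower in DC than in macrophages. Their medians were -0.32, -0.38 and -0.09. Tyrobp, the adaptor DAP12, measured 8167, 1062 and 5327 FPKM in Gr-1+ CD11b+ cells, DC and macrophages. Dok2, which dampens kinase signals, was at 22.3, 27.5 and 120.3 FPKM, and Gab1, a docking protein gene, at 5.89, 1.76 and 18.2 FPKM. With equal FPKM sums Tyrobp and Dok2 did not pass between DC and macrophages, at -1.94 and -1.71, which left 1 lower. With median-ratio scaling Dok2 and Dok1 did not pass between Gr-1+ CD11b+ cells and macrophages, at -1.82 and -1.80, nor did Dok1 between Gr-1+ CD11b+ cells and DC, at -1.60, which left 0 lower in both. Gab2 then passed between Gr-1+ CD11b+ cells and DC, at 2.28. The phosphatase genes Ptpn6 and Ptpn1 were at 282, 336 and 326 FPKM and at 121, 89.4 and 141 FPKM, without passing the rule. Of 10 feedback inhibitors 1 passed, between Gr-1+ CD11b+ cells and DC as deposited but not with equal FPKM sums, at 1.98. This was Socs3, which dampens the G-CSF and gp130 receptors, at 464 FPKM in Gr-1+ CD11b+ cells, 90.2 FPKM in DC and 328 FPKM in macrophages. The STAT5 inhibitor gene Cish was at 79.6, 34.1 and 67.5 FPKM and Socs1 at 57.7, 22.7 and 32.0 FPKM. With median-ratio scaling Socs1 also passed between Gr-1+ CD11b+ cells and DC, at 2.07, and Socs3 between DC and macrophages, at -2.04. The medians of the inhibitors were -0.69, -0.21 and -0.16.

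Genes known as targets of the STATs were counted as well. Over all genes, 3.65% were higher and 6.28% lower in the Gr-1+ CD11b+ cells than in DC. The shares were 1.41% and 3.41% against macrophages, and 1.53% and 2.31% for DC against macrophages. The 9 STAT3 targets include Il4ra, already counted as 1 of the 10 genes, which was not called. They also include Socs3, the called feedback inhibitor, and the STAT5 targets include Osm, a called ligand gene. Pim1 is in both target lists, and Cish and Socs2 are among both the inhibitors and the STAT5 targets. The lists are therefore not separate evidence. Of the 9, 3 were higher in the Gr-1+ CD11b+ cells than in DC, none was called against macrophages, and 1 was lower in DC than in macrophages. Il1r2, a decoy receptor gene, measured 5731, 699 and 1532 FPKM in Gr-1+ CD11b+ cells, DC and macrophages, Cebpb, a myeloid transcription factor, was at 3912, 247 and 1719 FPKM, and Junb at 1984, 905 and 1334 FPKM. Of 8 STAT5 targets, 2 were higher in the Gr-1+ CD11b+ cells than in DC, 1 was higher and 1 lower than in macrophages, and 1 was lower in DC than in macrophages. Bcl2l1, a survival gene, was at 111, 10.5 and 14.0 FPKM, the cytokine gene Osm at 516, 34.5 and 346 FPKM, Id2 at 67.4, 162 and 354 FPKM and Mcl1 at 521, 181 and 431 FPKM. The medians were 1.23, 0.64 and -0.56 for the STAT3 targets and 1.11, 0.25 and -0.67 for the STAT5 targets. With median-ratio scaling Id2 did not pass, at -1.80, Mcl1 passed between Gr-1+ CD11b+ cells and DC, at 2.29, and Il1r2 between Gr-1+ CD11b+ cells and macrophages, at 2.48. Fos and Cebpd then also passed between Gr-1+ CD11b+ cells and DC, at 2.01 and 2.31, making 5 STAT3 targets higher, and Socs3 between DC and macrophages, at -2.04, making 2 lower. With equal FPKM sums 2 STAT3 targets were higher in the Gr-1+ CD11b+ cells than in DC, without Socs3. The part of cell type in the counts of these targets was not tested.

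The 13 STAT6 targets split by gene, and their counts stand beside the same all-gene shares. In Gr-1+ CD11b+ cells 3 were higher and 5 lower than in DC, and 0 were higher and 7 lower than in macrophages, while in DC 0 were higher and 5 lower than in macrophages. With median-ratio scaling 3 were lower than in DC, 5 than in macrophages, and 6 lower in DC than in macrophages, and with equal FPKM sums these counts were 6, 7 and 3, with 1 higher in DC than in macrophages, Ccl22. Their median differences as deposited were -1.16, -2.35 and -1.65, beside 0.01, 0.10 and -0.05 over all genes. Retnla, a resistin-like protein induced by IL-4, measured 53.4, 606 and 1899 FPKM in Gr-1+ CD11b+ cells, DC and macrophages, and the lectin gene Cd209a was at 12.7, 203 and 105 FPKM. Tgm2 and Il1rn were high in both Gr-1+ CD11b+ cells and macrophages, with Tgm2 at 708, 95.2 and 459 FPKM and Il1rn at 935, 126 and 1475 FPKM. Chil3, also a monocyte gene, was at 198, 28.8 and 566 FPKM. Several of these genes mark macrophages or dendritic cells as such, and the part of cell type in these counts was not tested.

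For each of the 9 members at 10 FPKM or more, the genes closest in level over the 3 libraries were sought among 6702 genes, by the Euclidean distance in log2(FPKM + 1). Nearest to Csf3r were Hcar2, the niacin receptor gene, at 0.56, the chemokine gene Cxcl3 at 0.59 and the gelatinase gene Mmp9 at 0.62. Nearest to Csf1r were Ms4a6c at 0.62, C1qa at 0.84 and the selenium carrier gene Sepp1 at 0.95. Csf1 was closest to Il18rap, an IL-18 receptor chain, at 0.22, Fam101b at 0.28 and Cnnm2 at 0.32. Csf2ra was closest to Fgl2, Smim3 and Sod2, all at 0.40 to 0.41, and Csf2rb to Csrnp1 at 0.33, the IL-10 receptor chain Il10rb at 0.35 and Fgl2 at 0.36. Csf2rb2 was nearest to Relt at 0.21, Cd93 at 0.29 and Ddx28 at 0.33, and Il6ra to Dram1 at 0.21, the IL-15 receptor gene Il15ra at 0.32 and Qk at 0.38. Il4ra was nearest to Relb at 0.21, Ensa at 0.24 and Stxbp2 at 0.24, and Kit to Cers4 at 0.15, Kdelr3 at 0.23 and Fam102a at 0.27. With 3 libraries such likeness is a description of levels only.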

How the data were processed

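Each of the 3 libraries came from 1 sorted population. Per the labels' protocols, an RNeasy kit gave the total RNA, SMART-Seq HT the cDNA and Nextera the libraries. The authors deposited FPKM per gene symbol, in 1 table for each library. The submitters' processing notes name TopHat2 2.0.13 with Bowtie2 2.2.3 and Cufflinks 2.2.1, as well as SAMtools 0.1.19 and the mm10 build, without saying what each was used for. Annotation, filters, strandedness and pooling are not stated in the sources used here, so antisense genes that overlap Il3ra, Il4ra and Il6ra cannot be told apart from them. The same holds for Hmgxb3 where it overlaps the end of Csf1r.

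FPKM were used as deposited, and 1 was added before taking log2. The size rule was applied to all 17329 genes at 1 FPKM or more. A trial of the rule on simulated data covered counting error only, with planted changes well away from the limit. It does not bear on calls near the limit or on differences between replicates. Coordinates and transcript lengths came from GENCODE M21 (GRCm38, the same assembly as mm10). Depth was estimated from steps in FPKM times length of 3550 genes with a single transcript over 800 nt. On 1 kb, 1 fragment was worth 0.443 FPKM in Gr-1+ CD11b+ cells, 0.123 FPKM in DC and 0.163 FPKM in macrophages. Of low values 62.5%, 69.9% and 60.0% fell within 0.2 of whole steps, and 40% are so placed by chance. Fragment numbers use the longest coding transcript, so the Poisson intervals are the narrowest these steps allow. No molecular identifiers were named, so fragments may be copies of 1 molecule.

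The 10 genes and the 24 gene lists were chosen with earlier results of these data known. The named genes were the 10, the 3 highest and the 3 with the largest called difference of each pathway list, and the nearest 3 genes by level. Direct ligands and partner chains were named for their role. Some genes that this rule names are not reported here. Names that are only codes and antigen receptor segments were left out of the nearest genes. The 11 alternatives are given at the end. Python 3.11.15, NumPy 2.4.6, pandas 2.3.3, SciPy 1.17.1, Biopython 1.88 and matplotlib 3.10.9 were used.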

Additional observations from a re-analysis of the deposited data

How the results depend on the processing

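With 1 library per population there was no spread between replicates, so leaving out a library could not be tried, and no call carries an error beyond counting. No paired analysis was possible because each population had 1 library and the labels carry no replicate numbers. Levels under 9.67 FPKM in Gr-1+ CD11b+ cells and 3.23 FPKM in macrophages could not be set apart from background, which touches Kit and Il3ra.

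The 10 genes had 2 calls higher and 0 lower between Gr-1+ CD11b+ cells and DC, 2 and 1 between Gr-1+ CD11b+ cells and macrophages, and 1 and 4 between DC and macrophages. A pseudocount of 0.1, a floor of 1 FPKM and summing Csf2rb with Csf2rb2 left these counts as they were. A pseudocount of 10 gave 1 higher between Gr-1+ CD11b+ cells and DC, 1 higher between Gr-1+ CD11b+ cells and macrophages, and 0 higher and 1 lower between DC and macrophages. A floor of 30 FPKM gave 0 higher and 3 lower between DC and macrophages, without Kit and Il6ra. A log2 limit of 1 gave 5 higher and 1 lower between Gr-1+ CD11b+ cells and DC and 6 lower between DC and macrophages, and a limit of 3 gave 1 higher between Gr-1+ CD11b+ cells and DC, 1 higher and 0 lower between Gr-1+ CD11b+ cells and macrophages, and 0 higher and 1 lower between DC and macrophages. Equal FPKM sums gave 2 lower between DC and macrophages. Median-ratio scaling and equal 75th percentiles each gave 4 higher between Gr-1+ CD11b+ cells and DC, 0 lower between Gr-1+ CD11b+ cells and macrophages, and 0 higher between DC and macrophages. Counts not named for a setting were as deposited. The share of all genes past the rule was not computed at the other limits, floors and pseudocounts. Those counts show only how the calls of the 10 genes moved, and do not set them apart from all genes. Subtracting the silent-gene level gave 1 lower between Gr-1+ CD11b+ cells and DC, Kit, and 3 lower between Gr-1+ CD11b+ cells and macrophages, Csf1r, Csf2rb2 and Il6ra. Of 327 differences of single genes under the alternatives, 293 stayed on their side of the rule, with signs of uncalled ones free to turn, 21 lost the call, 13 gained it and 0 reversed.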

Other observations

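Other cytokine receptors differed between the populations, and those named here were chosen after their values were seen. Lifr, the receptor chain for leukemia inhibitory factor, stood at 2.36 FPKM in Gr-1+ CD11b+ cells, 5.96 FPKM in DC and 21.7 FPKM in macrophages. It passed the size rule between Gr-1+ CD11b+ cells and macrophages, at -2.76. Il27ra, an IL-27 receptor chain, measured 0.81, 13.3 and 2.38 FPKM across these libraries, with a difference of -2.99 between Gr-1+ CD11b+ cells and DC and of 2.08 between DC and macrophages, both past the rule, though the second was 1.87 with median-ratio scaling. Crlf2, the receptor chain for the epithelial cytokine TSLP, was at 34.4, 16.5 and 29.4 FPKM, and no difference passed the rule. Flt3l, the ligand gene of Flt3, was at 2.03, 12.4 and 6.89 FPKM, and its difference of -2.15 between Gr-1+ CD11b+ cells and DC passed the rule, but not with median-ratio scaling, at -1.53. The values of Lifr, Il27ra and Flt3l in Gr-1+ CD11b+ cells and of Il27ra in macrophages lay below the silent-gene level.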
